A study of Mus musculus with 8 samples.

Results

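The genes described here act in fatty acid oxidation. They are 33 of the 17097 genes measured, chosen by symbol: 20 act in mitochondria, 12 belong to peroxisomes, and 1, Slc27a1, takes part in fatty acid uptake. Each gene is represented by the probe set annotated to it alone, and where a gene had several, by the one with the highest mean over the 8 samples. The samples were dermal fibroblasts sorted from the back skin of 8 mice, with 1 array per mouse. GW9662, a compound that binds the nuclear receptor PPARG covalently and blocks it, was painted on 4 mice at 150 nmol in 300 µl acetone, and the 4 vehicle mice received 300 µl acetone alone. Both groups were 12 months old at the start and were painted 3 times a week for 6 months, so every sample comes from aged, acetone-treated skin. The cells were gated as positive for Pdgfra and CD34 and negative for CD45, CD117, CD24, CD31 and EpCam. RNA of 5000 cells was amplified over 21 cycles before hybridisation. The labels name no strain, genotype or sex. Animals of the same replicate number are treated as pairs, since the design text states that the mice were taken 1 per group per day. The labels do not say whether the numbers mark those days.

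Mitochondrial fatty acid oxidation begins when long-chain acyl groups are loaded onto carnitine, carried across the inner membrane and returned to coenzyme A. A repeated cycle of dehydrogenation, hydration, a further dehydrogenation and thiolysis then shortens the chain, and electrons pass through the electron transfer flavoprotein to the respiratory chain. Peroxisomes shorten very long and branched chains with their own set of enzymes, which are imported as folded proteins, and hand the products on to mitochondria. Many of these genes are known targets of the PPAR family, PPARA above all, in liver and muscle, and of PPARG in fat cells.

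Arrays of all 8 mice were similar, with sample medians between 4.63 and 4.69 on the log2 scale and correlations over genes between 0.990 and 0.997. Vehicle 4 lay apart on the first principal component (22.2, against -10.4 to 5.49 in the other 7). Without it, the difference between groups changed by more than 1.5 times for 20 of the 33 members, all of them uncalled in both fits. Leaving out some single mouse, not always vehicle 4, moved 32 of the 33 members by that much. Acot2, whose difference was 0 with all mice, has no ratio and is counted among the 32 but not among the 20. Cd34 lay between 10.49 and 10.81 and Pdgfra between 4.63 and 5.13 in all mice. Pdgfra was thus below the median of all gene means (5.27). It lay in the range of Pecam1 (4.63 to 5.27), the gene of CD31, for which the cells were gated as negative. The other genes of the negative gate, Ptprc, Kit, Cd24a and Epcam, lay between 2.81 and 4.07. The mean level of 9 measured fibroblast markers, collagen chains and Dcn among them, was 10.20 to 10.46 in vehicle and 10.28 to 10.45 after GW9662. Of fat cell markers, 7 of 10 were measured; their mean level ranged from 4.03 to 4.17 in vehicle and from 3.99 to 4.10 after GW9662, with a median difference of -0.0675. The 11 skeletal muscle markers had mean levels of 4.30 to 4.39 and 4.30 to 4.35. Markers of keratinocytes, sebocytes, immune cells, vessels, and melanocytes and Schwann cells had median differences between -0.04 and 0.041. Single markers, named after their values were seen, differed by more, and none passed limma (adjusted p = 0.997). Mlana of melanocytes was higher by 0.45, with GW9662 1 at 6.30 and the other 7 mice at 4.71 to 5.27. Trp63 of keratinocytes differed by -0.25, lower in 4 of 4 pairs. Tnnt3 of muscle differed by -0.21 (limma unadjusted p = 0.017). In these lists 4 melanocyte and Schwann cell markers were higher and 2 lower, 4 and 5 of keratinocytes, and 5 and 6 of muscle. Among the 8 vessel markers, Kcnj8, a potassium channel gene of mural cells that, like Kdr below, was chosen after its values were seen, measured 8.42, 7.89, 7.97 and 7.92 in vehicle and 7.91, 7.70, 7.13 and 7.91 after GW9662. It was lower in 4 of 4 pairs, the groups overlapped, and it did not pass limma (-0.39 ± 0.18, SE; adjusted p = 0.997). The mural cell genes Rgs5 and Mcam had low signals and did not follow it. Rgs5 lay between 3.78 and 4.34 and was higher after GW9662 in 3 of 4 pairs, with a difference of means of -0.11. Mcam lay between 3.63 and 3.76 and differed by 0.0075. The part of other cell types in the results below was not tested. In a sorted bulk sample, fewer cells of a kind and less RNA per cell cannot be told apart.

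No fatty acid oxidation gene passed the test between GW9662 and vehicle. Of the 33 members, 18 were lower by any amount after GW9662 and 14 higher, and Acot2 had equal means. Over all genes, 51.8% were lower and 47% higher. The median difference was -0.015 on the log2 scale for the members and -0.005 for all genes. Limma, a linear model with variances moderated across genes, gave 0 calls among the members and 0 among all 17097 genes (0% called) at an adjusted p under 0.05, with a smallest adjusted p among members of 0.997. Without adjustment, 1 of the 33 members (Pex5) had a p under 0.05, against 3.38% of all genes. With the replicate number as a block it was 0 of 33, against 4.83% of all genes. The 95% intervals of the difference are from the fit without the replicate block and are not adjusted for the number of genes. The interval lay within 0.5 in either direction, a fold of 1.41, for 32 of the 33 genes, all but Cpt1a. It lay within 0.3, a fold of 1.23, for 19.

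**Figure D1:**
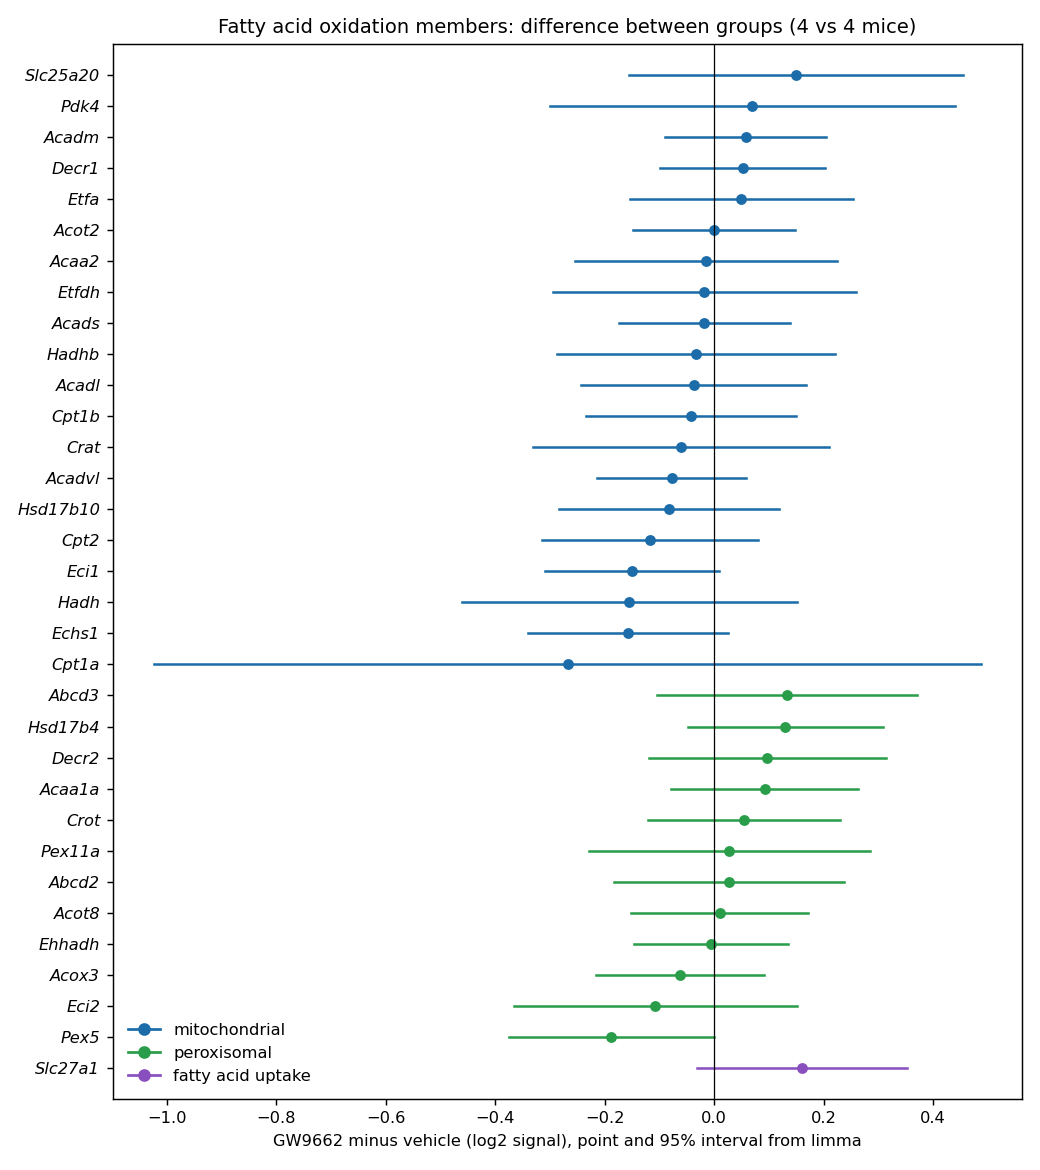
Difference between GW9662 and vehicle (log2 signal) for each of the 33 members, as a point with its 95% interval from limma over 4 against 4 mice, coloured by compartment. Most points lie within 0.2 of zero; the interval of Cpt1a is the widest, from -1.02 to 0.49, and that of Pex5 ends at zero.

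The mitochondrial and the peroxisomal members leaned to opposite sides of zero by small amounts. Of 20 mitochondrial members, 14 were lower and 5 higher after GW9662 (median -0.035), and of 12 peroxisomal members, 4 were lower and 8 higher (median 0.0275). These are descriptions of genes that share 8 mice. The peroxisomal lean was not found in the 31 further peroxisomal genes listed below, of which 9 were higher and 22 lower (median -0.0275). Of 22 further mitochondrial oxidation genes, 10 were higher and 12 lower (median -0.021). The medians were -0.065 and 0.041 without vehicle 4, and -0.08 and 0.067 without vehicle 4 and GW9662 4. Without vehicle 3 the mitochondrial median was 8e-04, and without GW9662 1 the peroxisomal median was -0.0033.

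The lean was not shared by the pairs. In pair 3, 16 of 20 mitochondrial members were lower in the GW9662 mouse (median -0.14), and in pair 1, 13 of 20 (median -0.07). In pairs 2 and 4 the larger number was higher, with 13 and 12 of 20 (medians 0.025 and 0.05). Over all genes 50.5%, 47.8%, 48.7% and 52.0% were lower in pairs 1 to 4. Of peroxisomal members, 8 of 12 were higher in pairs 1 and 2, 6 of 12 in pair 3 and 4 of 12 in pair 4. Mean mitochondrial signal, each gene taken relative to its own mean over the 8 mice, was -0.076, 0.067, 0.097 and -0.0032 in vehicle 1 to 4 and -0.12, 0.099, -0.082 and 0.021 in GW9662 1 to 4. The groups overlapped throughout, with GW9662 2 the highest mouse by this mean and GW9662 1 the lowest. By the median over the same genes, vehicle 3 (0.089) and vehicle 2 (0.085) lay above GW9662 2 (0.081). GW9662 1 (-0.0925) was the lowest by the median too. Mean peroxisomal signal on the same scale was -0.071, 0.032, -0.0029 and 0.0071 in vehicle and 0.035, 0.056, -0.054 and -0.0029 after GW9662. Vehicle 1 was the lowest mouse here and GW9662 2 again the highest.

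**Figure D2:**
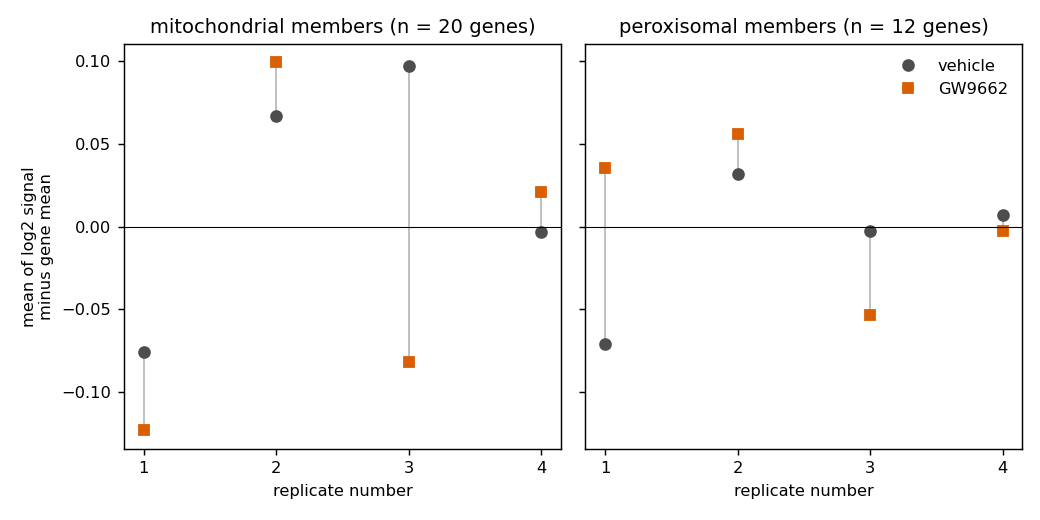
Mean log2 signal of the 20 mitochondrial and the 12 peroxisomal members in each mouse, relative to each gene's mean over 8 mice, by replicate number; grey lines join the mice of 1 number. The orange squares (GW9662) lie below the grey circles (vehicle) in numbers 1 and 3 and above them in 2 and 4 for mitochondrial members, and above in 1 and 2 and below in 3 and 4 for peroxisomal members.

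Genes of the carnitine shuttle, which admits fatty acids to the mitochondrion, were lower in 4 of 5 cases and none passed the test. Cpt1a, the outer membrane carnitine palmitoyltransferase that sets the pace of entry, measured 6.47, 7.45, 7.96 and 7.78 in vehicle 1 to 4 and 6.37, 7.69, 7.12 and 7.41 in GW9662 1 to 4. Both mice of number 1 lay below the other 6, and the groups overlapped. Its difference of -0.27 ± 0.34 (SE, n = 4 per group) was -0.0083 without GW9662 1 and -0.58 without vehicle 1. With the replicate number as a block its SE was 0.15 (limma adjusted p = 0.966).

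Slc25a20, the translocase that exchanges acylcarnitine for carnitine across the inner membrane, measured 6.17, 6.78, 6.53 and 6.48 in vehicle and 6.55, 6.96, 6.57 and 6.48 after GW9662. It was higher in 3 pairs and equal in pair 4, and the groups overlapped (0.15 ± 0.14, SE). The difference was 0.043 without vehicle 1 or without GW9662 2, and 0.25 without vehicle 2. A further probe set of the gene differed by 0.115. Cpt2, which returns acyl groups to coenzyme A on the matrix side, measured 5.57, 5.69, 5.68 and 5.53 in vehicle and 5.47, 5.75, 5.38 and 5.40 after GW9662. GW9662 2 was the highest of all mice and the other 3 treated mice the lowest (-0.12 ± 0.089, SE; -0.20 without GW9662 2). Cpt1b, the isoform known from muscle, measured 5.42, 5.41, 5.55 and 5.51 in vehicle and 5.29, 5.42, 5.34 and 5.67 after GW9662 (-0.0425 ± 0.087, SE). Its treated mice spanned both ends of the range. Crat, the carnitine acetyltransferase found in mitochondria and peroxisomes, ranged from 6.70 to 7.23 in vehicle and from 6.80 to 7.06 after GW9662.

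Acyl-CoA dehydrogenases, which take the first step of each cycle on chains of different length, differed little. Acadvl, the enzyme of very long chains, measured 8.61, 8.69, 8.54 and 8.56 in vehicle and 8.52, 8.60, 8.51 and 8.46 after GW9662. It was lower in 4 of 4 pairs, by 0.03 to 0.10, and the groups overlapped (-0.0775 ± 0.061, SE). Among the members 3 were lower in all pairs, Acadvl, Eci1 and Pex5, against 5.93% of all genes, and 1 was higher in all pairs, Hsd17b4, against 5.46%. Acadm, Acadl and Acads, for medium, long and short chains, differed by 0.0575, -0.0375 and -0.0175. Their intervals stayed between -0.24 and 0.20.

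The later steps of the cycle were lower in all 5 members by any amount, none past the test. Echs1, the hydratase of short chains, measured 7.19, 7.23, 7.29 and 6.92 in vehicle and 7.05, 6.98, 7.0 and 6.97 after GW9662. Vehicle 4 was the lowest mouse of all, and the other 3 vehicle mice lay above every treated one. The difference was -0.16 ± 0.082 (SE), and -0.24 without vehicle 4. Hadh, the 3-hydroxyacyl-CoA dehydrogenase, measured 8.79, 8.72, 8.47 and 8.80 in vehicle and 8.38, 8.52, 8.30 and 8.96 after GW9662 (-0.155 ± 0.14, SE). GW9662 4 was the highest mouse and GW9662 3 the lowest, and the difference was -0.295 without the former and -0.075 without the latter. The probe set of Hadh is of a type whose probes can match related sequences, and the further set of the gene differed by -0.005. Hadhb, the thiolase subunit of the trifunctional protein, Acaa2, a thiolase, and Hsd17b10, a dehydrogenase of branched chains, differed by -0.0325, -0.015 and -0.0825. Without vehicle 4 the difference of Hsd17b10 was -0.17 and that of Hadhb -0.145.

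Of the enzymes that handle double bonds, Eci1 was lower in every pair. Eci1, an enoyl-CoA isomerase, measured 7.75, 7.75, 7.67 and 7.86 in vehicle and 7.48, 7.70, 7.56 and 7.69 after GW9662. The pairs differed by 0.05 to 0.27, and the groups overlapped only through vehicle 3 (-0.15 ± 0.072, SE; 95% interval -0.31 to 0.0097). Its limma adjusted p was 0.997, and 0.966 with the replicate number as a block. Decr1, the 2,4-dienoyl-CoA reductase of mitochondria, differed by 0.0525, and by 0.0075 without vehicle 4. Etfa, a subunit of the electron transfer flavoprotein, and Etfdh, which passes its electrons to ubiquinone, differed by 0.05 and -0.0175. Etfdh ranged from 6.90 to 7.35 in vehicle and from 6.92 to 7.35 after GW9662.

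Pdk4, the kinase that shuts down pyruvate dehydrogenase when fat is burned, measured 3.43, 3.75, 3.81 and 4.36 in vehicle and 3.74, 4.06, 3.84 and 3.99 after GW9662. Vehicle mice held both the lowest and the highest value. The difference was 0.07 ± 0.17 (SE), higher in 3 of 4 pairs, and 0.24 without vehicle 4. Acot2, a matrix thioesterase that releases free fatty acid, had means of 5.475 in both groups, with an interval from -0.15 to 0.15. Pdk4, Acads, Ehhadh and Pex11a lay at or below the median of all gene means (5.27) and the other 29 members above it. Signals were not compared with background, and a low signal can hide a change.

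Pex5 was the one member whose groups did not overlap. It encodes the receptor that carries proteins with a C-terminal targeting signal into peroxisomes. It measured 5.68, 5.62, 5.92 and 5.64 in vehicle and 5.61, 5.52, 5.38 and 5.60 after GW9662. Vehicle 3 was the highest and GW9662 3 the lowest, while vehicle 2 and GW9662 1 were only 0.01 apart across the gap. The difference was -0.19 ± 0.084 (SE; 95% interval -0.37 to -6.5e-05; limma adjusted p = 0.997). Pair 3 differed by -0.54 and the other pairs by -0.04 to -0.10, and without vehicle 3 the difference was -0.12. A lower treated group without overlap was found in 1 of 33 members (3.03%) and 1.05% of all genes, and a higher one in 0 members and 0.708% of all genes; either way it was 1.75% of all genes. The second probe set of Pex5 differed by 0.0175, and the mean of both sets by -0.085. Pex11a, a peroxin of peroxisome division, ranged from 3.74 to 4.07 in vehicle and from 3.76 to 4.28 after GW9662.

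Both peroxisomal importers of acyl-CoA were higher by small amounts. Abcd3, the more widely expressed transporter, measured 8.30, 8.53, 8.31 and 8.02 in vehicle and 8.55, 8.50, 8.27 and 8.37 after GW9662 (0.13 ± 0.11, SE). Vehicle 4 was the lowest mouse, and without it the difference was 0.0425. Abcd2, its relative for very long chains, measured 7.63, 7.87, 7.58 and 7.96 in vehicle and 7.90, 7.69, 7.73 and 7.83 after GW9662. Its vehicle mice enclosed the treated ones (0.0275 ± 0.094, SE).

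Of the peroxisomal oxidation enzymes, Hsd17b4 was higher in every pair. Hsd17b4, the D-bifunctional enzyme of the hydratase and dehydrogenase steps, measured 7.27, 7.56, 7.53 and 7.37 in vehicle and 7.44, 7.63, 7.58 and 7.60 after GW9662. Pairs differed by 0.05 to 0.23 and the groups overlapped through GW9662 1 (0.13 ± 0.08, SE; 95% interval -0.048 to 0.31), and the difference was 0.076 without vehicle 1. Acaa1a, the peroxisomal thiolase, measured 8.97, 9.19, 9.21 and 9.19 in vehicle and 9.26, 9.28, 9.30 and 9.09 after GW9662. The treated mice were above all vehicle mice except GW9662 4, which lay below 3 of them (0.0925 ± 0.077, SE; 0.036 without vehicle 1). Its further sets differed by -0.025 to 0.065. They had means of 4.26 to 4.56, against 9.19 for the chosen set, and correlated with it at -0.054 to 0.707 over the 8 mice. Acox3, an oxidase of branched chains, and Ehhadh, the L-bifunctional enzyme, differed by -0.0625 and -0.005. Ehhadh stayed between 3.23 and 3.42 in all mice, close to the low end of the values on these arrays (2.44).

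Auxiliary peroxisomal enzymes were mixed. Decr2, the peroxisomal dienoyl-CoA reductase, measured 7.46, 7.36, 7.17 and 7.10 in vehicle and 7.44, 7.53, 7.24 and 7.27 after GW9662. In both groups numbers 1 and 2 were above numbers 3 and 4, and the groups overlapped (0.0975 ± 0.097, SE; 0.04 without vehicle 4). Eci2, an isomerase present in peroxisomes and mitochondria, measured 7.15, 7.42, 7.44 and 7.55 in vehicle and 6.99, 7.43, 7.26 and 7.45 after GW9662 (-0.11 ± 0.12, SE). Its lowest values were again the mice of number 1, and the difference was -0.01 without GW9662 1 and -0.19 without vehicle 1. Crot, the carnitine octanoyltransferase that exports shortened chains, and Acot8, a thioesterase, differed by 0.055 and 0.01.

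Slc27a1, a fatty acid transport protein of the cell surface, measured 7.54, 7.76, 7.71 and 7.49 in vehicle and 7.95, 7.74, 7.80 and 7.65 after GW9662. The difference was 0.16 ± 0.086 (SE), higher in 3 pairs and lower by 0.02 in pair 2, and the groups overlapped. Its second probe set differed by 0.115.

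**Figure D3:**
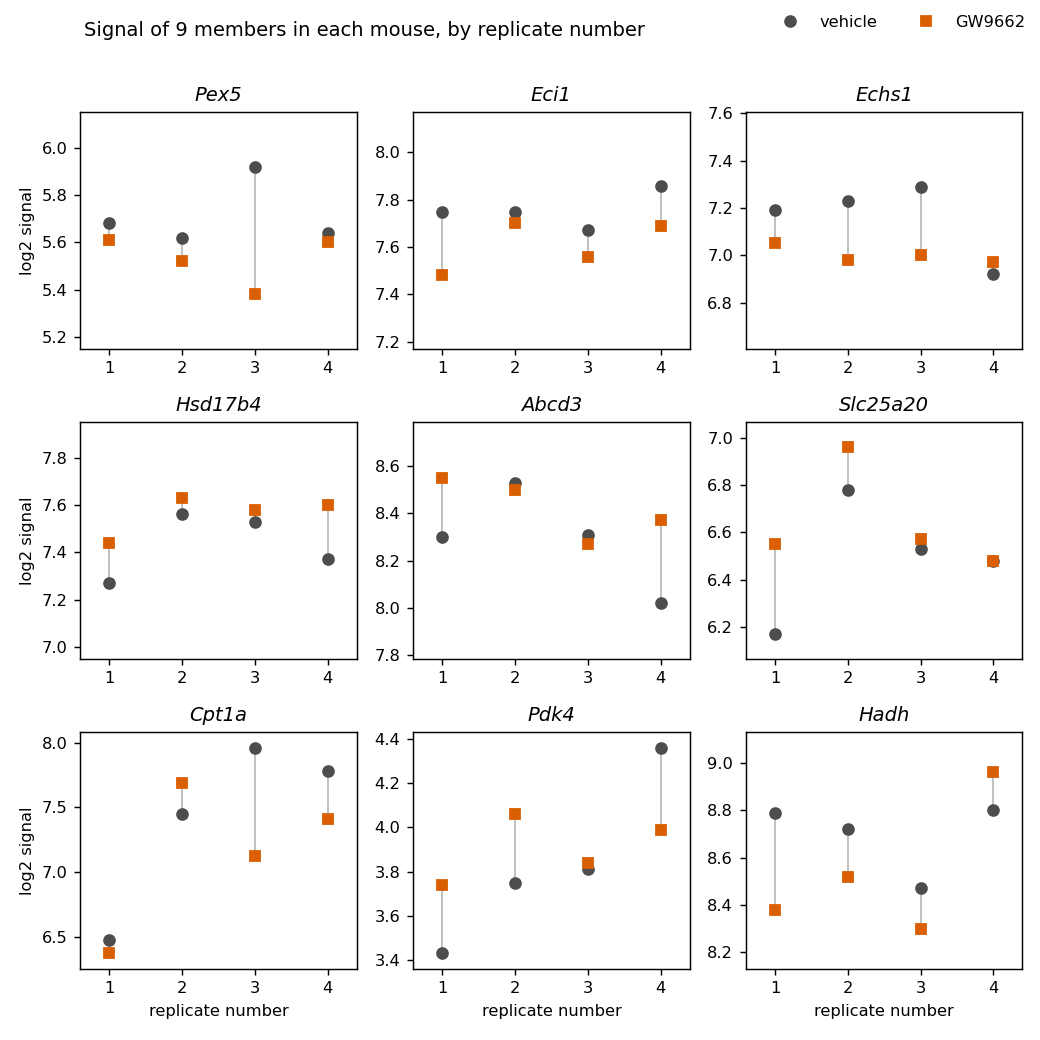
Log2 signal of 9 members in each mouse by replicate number, with vehicle as grey circles, GW9662 as orange squares and a line joining the mice of 1 number; each panel has its own vertical range of at least 1 log2 unit. Pex5 and Eci1 are lower and Hsd17b4 higher after GW9662 in every number, while Cpt1a is low in both mice of number 1.

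The spread between mice was larger than the difference between treatments for the most variable members. The median SD over 8 mice was 0.136 for the members and 0.117 for all genes. Cpt1a had an SD of 0.59 and a range of 1.59, above 99.8% of genes in SD. Pdk4 (0.27), Hadh (0.23), Slc25a20 (0.23) and Etfdh (0.19) followed, and Ehhadh had the lowest SD (0.064).

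The level of Cpt1a went with the replicate number, which both groups share. The means of its 2 mice were 6.42 for number 1 and 7.57, 7.54 and 7.595 for numbers 2 to 4. Kdr, an endothelial receptor gene among the vessel markers, measured 6.72 and 7.26 in vehicle 1 and GW9662 1 and 7.75 to 8.58 in the other 6 mice. The endothelial genes Pecam1, Cdh5, Tie1 and Vwf did not have both mice of number 1 below the other 6. Pecam1 measured 4.65 and 4.79 in vehicle 1 and GW9662 1 and 4.63 to 5.27 in the other 6. Cdh5, Tie1 and Vwf had low signals, between 3.52 and 4.16 in all mice. The part of endothelial cells in the level of Cpt1a was not tested. Both mice of number 1 were below the other 6 in 5 of 33 members (Cpt1a, Acaa2, Etfa, Pdk4 and Eci2) and in 4.42% of all genes. Both were above the other 6 in 0 members and in 2.32% of genes. Both mice of number 2 were the highest for Cpt2 and Slc25a20 (4.38% of all genes), and those of number 4 for Hadh and Eci2 (5.91%). Acot2 was lowest in both mice of number 2 (3.46% of all genes) and Echs1 in both of number 4 (6.29%). Both mice of number 3 were lowest in 0 members (2.89% of all genes) and highest in 0 (3.14%). An F-test of the replicate number in limma, with treatment in the model and added after these values had been seen, gave an unadjusted p under 0.05 in 6 of 33 members (Cpt1a, Hadh, Pdk4, Slc25a20, Eci2 and Decr2) and in 9.1% of all genes. Adjusted over all genes it called 0 members and 0% of genes, with an adjusted p of 0.401 for Cpt1a. What the mice of a number share is not given in the labels, which do not say whether a number marks a day of collection.

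**Figure D4:**
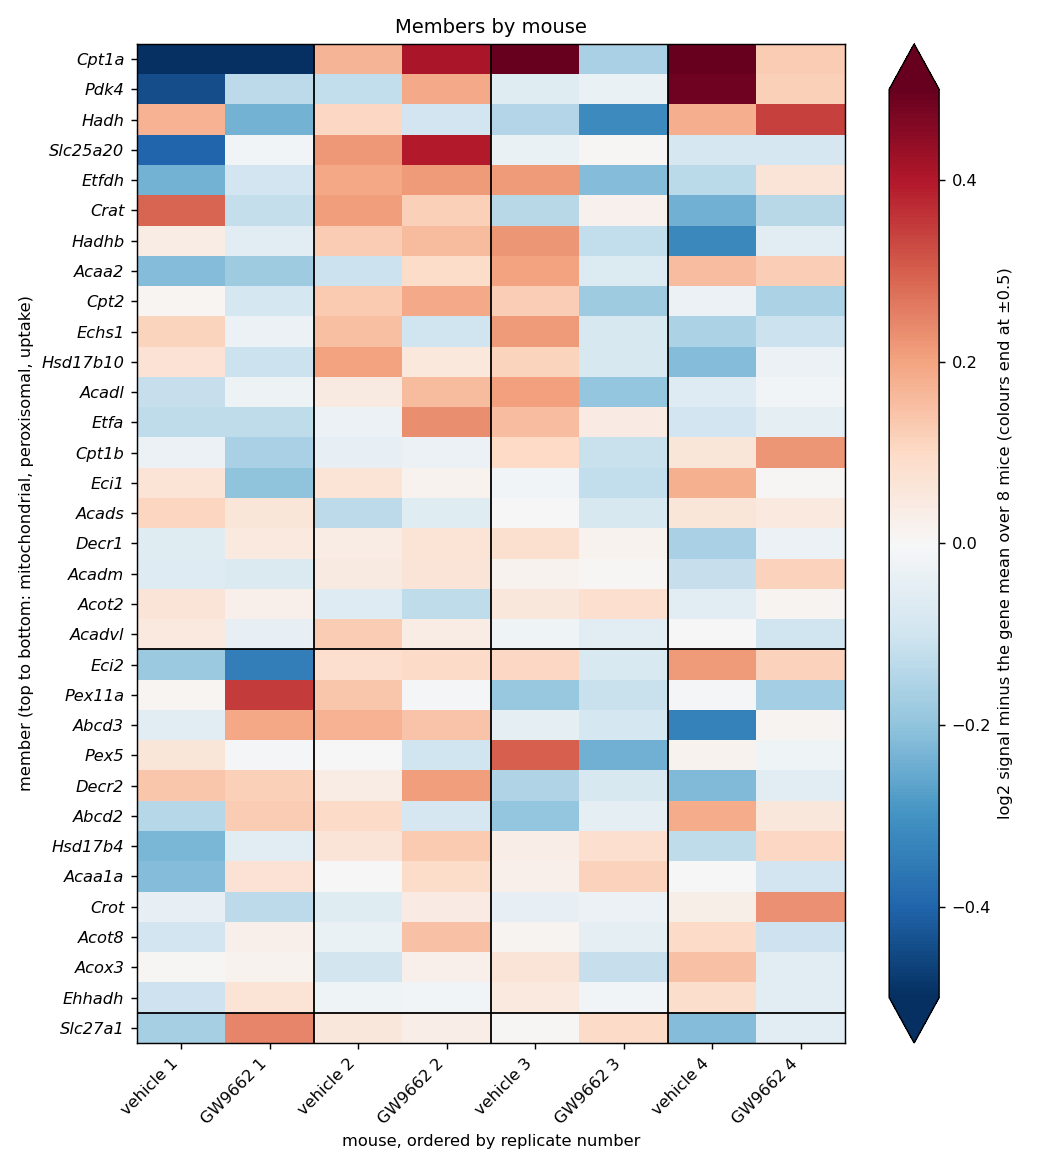
Log2 signal of each member in each mouse minus the gene's mean over 8 mice, with mice ordered by replicate number (black vertical lines) and members by compartment and then by SD; colours end at 0.5 in either direction. Cpt1a is below its mean in both mice of number 1, and no row splits cleanly by treatment except Pex5.

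Several members were read by more than 1 probe set. Of the 33 genes, 18 had 1 set and 15 had more, with 20 further sets in all. The further set differed in the same direction as the chosen one in 13 cases and in the opposite direction in 6, and for Acot2 the chosen set had no difference. For Acaa2 the differences of its 3 sets were -0.015, -0.035 and -0.11, for Acox3 those of 2 sets were -0.0625 and -0.105, and for Hadhb they were -0.0325 and -0.02. Over the 8 mice the further sets correlated with the chosen one at 0.947 and 0.919 for Acaa2 and 0.608 for Acox3, but at -0.516 for Hadhb. Some further sets had low signals, such as those of Abcd2 (means of 3.12 to 3.64) and Acadl (3.38). For Hsd17b10 the 2 sets differed in opposite directions, at -0.0825 and 0.035.

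PPAR and RXR bind DNA as a pair at a direct repeat of AGGTCA with 1 base between the copies. That element, searched as AGGTCA, any base, AGGTCA on both strands, was in 0 of 32 promoter windows of the members (250 bases before to 50 after the start, RefSeq, GRCm38.p6) and in 0.0396% of all 32851 windows. In all, 27 of the 33 members matched a window. A looser form, AGGNCA, any base, AGGNCA, was in 0 of the 32 and 0.381% of all windows. TNAAGGTCA, the element of oestrogen-related receptors, which contains AGGTCA, was in 0 and 1.28%. Elements this rare are absent from most sets of 32 windows, so these counts of 0 do not tell the members from other genes. Sites outside the windows were not searched, nor were the 6 members without a window. A single AGGTCA was in 4 of 32 windows (12.5%) and 16.3% of all windows. These 4 are shown because they are the members' only windows with that copy of the element, with it in capitals, as AGGTCA or, where it lies on the opposite strand, as TGACCT. They are read along the gene, 60 bases each, and all lie before the start site.
Cpt1a: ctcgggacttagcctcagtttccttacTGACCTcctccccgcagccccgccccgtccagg
Echs1: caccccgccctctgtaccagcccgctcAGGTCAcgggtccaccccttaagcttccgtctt
Acadvl: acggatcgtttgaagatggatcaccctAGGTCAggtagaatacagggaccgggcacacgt
Acadm: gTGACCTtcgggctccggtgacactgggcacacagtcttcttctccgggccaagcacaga
The Cpt1a stretch is chr19:3323180-3323239 on the plus strand, with the match at -94 to -89 from the start. The Echs1 stretch is chr7:140116472-140116531 (match at -83 to -78), that of Acadvl is chr11:70015483-70015542 (-87 to -82) and that of Acadm is chr3:153944834-153944893 (-249 to -244), all on the minus strand. Of these 4 genes, Cpt1a, Echs1 and Acadvl were lower after GW9662 by any amount and Acadm higher, none past the test.

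Other genes of the same pathways gave no call either. Of 22 further mitochondrial oxidation genes measured (28 listed), 0 passed limma over all genes, with 10 higher and 12 lower by any amount (median -0.021). Gcdh, which oxidises glutaryl-CoA from lysine, differed by -0.16 ± 0.098 (SE; -0.084 without vehicle 4), and Acad12 by -0.12 ± 0.08. Of 31 further peroxisomal genes measured (41 listed), 0 passed, with 9 higher and 22 lower (median -0.0275). Pex13, a membrane peroxin of the import site where PEX5 docks, measured 6.71, 6.77, 6.87 and 6.75 in vehicle and 6.86, 6.89, 6.89 and 6.94 after GW9662. It was higher in 4 of 4 pairs (0.12 ± 0.059, SE), and the groups overlapped by 0.01 through vehicle 3. Amacr, the racemase of branched chains, differed by -0.185 ± 0.097 (-0.28 without vehicle 4). Of 13 PPAR receptor and cofactor genes measured (16 listed), 0 passed and 10 were lower (median -0.0525), with the coactivator genes Ncoa2 and Med1 each at -0.14. Over all genes, 51.8% were lower by any amount. Pparg, the gene of the receptor that GW9662 blocks, differed by -0.0225. Its signal lay between 4.46 and 5.13 in all mice, below the median of all gene means (5.27). No gene of these lists had an unadjusted p under 0.05.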

How the data were processed

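The authors' deposited values are log2 signals per probe set for 45141 probe sets of a mouse array. Per the submitters' processing notes they were made with RMA and affy; versions are not given in the sources used here. RMA corrects background, equalises the arrays and summarises probes, so a shift shared by all genes cannot be seen. That the scale is log2 was judged by the values' range. For arrays, the number of mice limits the precision. Genes were named from the platform annotation and updated to RefSeq symbols: 28898 probe sets had 1 gene; those with several (551) or none here (15692) were not used. This left 17097 genes.

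GW9662 minus vehicle was tested in R 4.3.3 using limma 3.58.1 (lmFit and eBayes without covariates) and adjusted by Benjamini-Hochberg over all genes, two-sided, at 0.05. SEs and intervals are from this fit, without the replicate block, unless stated. With the block the SE was smaller for Cpt1a (0.15 against 0.34) and Slc25a20 (0.080 against 0.14) and larger for Pex5 (0.095 against 0.084). The procedure was tested on simulated data. Each array is 1 mouse. Deviations from group means correlated between same-numbered mice at 0.203, 0.163, 0.114 and 0.165 over genes, and the design pairs mice by day, so numbers were read as pairs. No 2 samples shared over 3.05% of values. Every member is named. Values per mouse are given for the 6 members of smallest p in each compartment, those without overlap, and Cpt1a, Cpt1b, Cpt2, Pdk4, Pex5, Hsd17b4, Abcd2 and Slc27a1 by role. From each further list the 2 genes of smallest p are named, and Pparg is named as the gene of the receptor that GW9662 blocks. The members and lists were chosen with earlier results of these data known. Alternatives were the replicate block, trend and robust variances, brighter genes only, the mean of probe sets, renewed quantile normalisation, median centring, array weights, each mouse left out, other thresholds and the compartment of Crat and Eci2. After the values had been seen, the fit without the mice of number 4, the F-test of numbers, the counts of numbers at either end and 2 motifs were added. A planned reading of protein targeting signals was not analysed here.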

Additional observations from a re-analysis of the deposited data

Results flagged for a closer look

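In the vehicle group, Acaa1a of vehicle 1 (8.97) stood far from the other 3 mice, which lay between 9.19 and 9.21; the gap took up 0.917 of the group's range, above Dixon's critical value for 4 samples. Of 66 gene and group combinations examined in this way, 1 exceeded the value, where chance flags about 1 in 20, or 3.3.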

How the results depend on the processing

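With the replicate number as a block, limma called 0 of all genes and 0 members (smallest adjusted p among members 0.966), and the block changed no call. In all 16 alternative fits 0 genes were called, members and other pathway genes included; the lowest adjusted p of a member was 0.917. At an unadjusted p under 0.05, 1 member was counted instead of 0. The median difference of the mitochondrial members ranged from -0.091 (without GW9662 2) to 8e-04 (without vehicle 3), and that of the peroxisomal members from -0.0033 (without GW9662 1) to 0.067 (without the mice of number 4). The direction of 18 members did not turn in any fit, and Acot2, at 0 in the main test, ranged from -0.028 to 0.0625. It turned for 14 when a mouse was left out, with ranges of -0.12 to 0.0042 for Cpt1b, -0.096 to 0.025 for Acadl, -0.064 to 0.016 for Acads, -0.145 to 0.035 for Hadhb, -0.04 to 0.023 for Ehhadh, -0.09 to 0.05 for Acaa2, -0.019 to 0.11 for Etfa, -0.099 to 0.052 for Etfdh, -0.066 to 0.24 for Pdk4, -0.15 to 0.027 for Crat, -0.0125 to 0.11 for Crot, -0.0325 to 0.094 for Abcd2, -0.084 to 0.089 for Pex11a and -0.037 to 0.047 for Acot8. Array weights turned Ehhadh (0.0203) and Acaa2 (0.018), the mean of probe sets turned Abcd2 (-0.0031) and Pex11a (-0.019), and leaving out the mice of number 4 turned Ehhadh (0.04). The cause was not tested. Among the brighter genes, 29 members were left. No detection calls were used, so the members of low signal could have changed unseen.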

Other observations

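Of the 4 measured ketone body genes (7 listed), all had higher means after GW9662, with a median difference of 0.19 on the log2 scale (0.12 without vehicle 4), and 0 passed limma over all genes or had an unadjusted p under 0.05. Oxct1, which activates ketone bodies for oxidation, measured 9.61, 9.49, 8.70 and 8.26 in vehicle and 9.65, 9.31, 9.19 and 9.33 after GW9662. Vehicle 3 and vehicle 4 were below every other mouse, and the difference was 0.355 ± 0.26 (SE, n = 4 per group), higher in 3 of 4 pairs and 0.10 without vehicle 4. Slc16a1, a transporter of monocarboxylates, differed by 0.21 ± 0.20, and by 0.13 without vehicle 4. Bdh2, a hydroxybutyrate dehydrogenase, differed by 0.18 ± 0.11, and Acat1, a thiolase, by 0.0175, which was -0.026 without vehicle 4. Bdh2, Slc16a1 and Acat1 were each higher in 2 of 4 pairs.

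Of 7 genes of the pyruvate dehydrogenase complex and its kinases and phosphatases, 5 were higher and 2 lower, and 0 passed. Pdp1, a phosphatase that switches the complex on, measured 4.79, 4.72, 4.60 and 4.46 in vehicle and 4.99, 4.74, 4.92 and 4.71 after GW9662. It was higher in 4 of 4 pairs, and the groups overlapped (0.20 ± 0.092, SE). Pdhb, a subunit of the complex, differed by 0.19 ± 0.13 (0.051 without vehicle 4), with vehicle 4 (7.17) below the other mice (7.60 to 7.83).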
